A study of Mus musculus with 18 samples.

Results

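The cytochrome P450 genes of families CYP1, CYP2 and CYP3 were described across normal mouse liver and 3 groups of hepatocellular carcinoma (HCC). They were taken as all probe sets whose single gene symbol begins with Cyp1, Cyp2 or Cyp3 followed directly by a letter. Of 45101 probe sets on the array, 52 met this rule and stood for 43 genes. A signal above log2 4 on at least 3 of the 18 arrays was required, which 37 probe sets met, so that 33 P450 genes were among the 9053 genes tested. These were 2 of family CYP1, 27 of CYP2 and 4 of CYP3. The 10 genes not kept were Cyp1b1, Cyp2b10, Cyp2b19, Cyp2c65, Cyp2d12, Cyp2d34, Cyp2j11, Cyp2j13, Cyp2s1 and Cyp3a16. Just inside the limit stood Cyp1a1 and Cyp2c38, each above log2 4 on 3 arrays, and just outside it stood Cyp2b10 and Cyp2d12, on 2 arrays.

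P450 enzymes are haem proteins of the endoplasmic reticulum that oxidise drugs, carcinogens, steroids and fatty acids with electrons passed on by P450 reductase. In liver they are made mainly by hepatocytes, and many are strongest around the central vein, where Wnt and β-catenin signalling is active. The receptors Ahr, CAR (gene Nr1i3) and PXR (gene Nr1i2) induce the drug-metabolising members, and the pulsatile growth hormone of males, acting through Stat5b, sets apart male-biased and female-biased members.

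All samples came from male mice. Normal liver was represented by 3 samples from untreated C3H/HeOuJ mice, wild type (WT) for Tlr4, at 15 weeks of age. WT tumours were 7 HCC lesions of C3H/HeOuJ mice at 54 weeks, given 100 mg/kg of diethylnitrosamine (DEN) in week 12 and then CCl4 at 0.5 ml/kg in 6 injections from week 13 to week 23. DEN and CCl4 are both activated to toxic products by P450 enzymes, Cyp2e1 among them. Tlr4-mutant tumours were 5 lesions from the C3H/HeJ strain, whose Tlr4 carries the change P712H, after the same regimen and at the same age. Antibiotic tumours were 3 lesions of C3H/HeOuJ mice on the same regimen that also drank ampicillin, neomycin and metronidazole at 1 g/l each and vancomycin at 500 mg/l, from week 10 to week 54. The mutant line is a separate strain, and every tumour group carries both toxicants and is older than the normal livers, so that tumour, treatment and age cannot be told apart in the comparisons with normal liver. Whether the normal livers or the lesions of one group were taken from different mice is not said in the labels, so the p-values cover the spread between these samples and no more.

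The sequences just upstream of 5 members are shown because these genes differ in the pattern that the arrays turned on. Cyp2e1 and Cyp2c29 are pericentral enzymes, Cyp2c39 had high signals on a few tumour arrays only, Cyp2f2 is a periportal enzyme, and Cyp2b9 is the female-biased gene with a raised signal in all tumour groups. They are the 250 bases before the start site in RefSeq, mouse build GRCm38.p6, written 5′ to 3′. Capitals mark a TATA box (TATAAA), the core recognised by TCF and LEF factors, the DNA partners of β-catenin (CTTTGAT, or ATCAAAG on the opposite strand), and a half-site of nuclear receptors (AGGTCA).
Cyp2e1 promoter, chr7:140763569-140763818, + strand: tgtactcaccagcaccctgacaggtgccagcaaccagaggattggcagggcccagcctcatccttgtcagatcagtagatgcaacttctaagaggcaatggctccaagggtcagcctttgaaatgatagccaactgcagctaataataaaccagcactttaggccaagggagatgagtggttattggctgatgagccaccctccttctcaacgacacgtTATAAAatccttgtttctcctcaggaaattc
Cyp2c29 promoter, chr19:39286835-39287084, + strand: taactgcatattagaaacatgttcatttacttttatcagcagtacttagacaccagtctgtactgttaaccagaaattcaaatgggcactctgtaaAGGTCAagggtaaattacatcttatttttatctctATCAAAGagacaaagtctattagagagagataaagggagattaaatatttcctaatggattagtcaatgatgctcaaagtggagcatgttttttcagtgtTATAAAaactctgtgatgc
Cyp2c39 promoter, chr19:39510572-39510821, + strand: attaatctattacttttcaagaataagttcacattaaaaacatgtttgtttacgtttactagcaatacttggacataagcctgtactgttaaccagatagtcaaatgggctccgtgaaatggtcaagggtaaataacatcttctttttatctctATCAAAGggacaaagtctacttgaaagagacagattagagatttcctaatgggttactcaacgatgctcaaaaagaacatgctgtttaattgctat
Cyp2f2 promoter, chr7:27119705-27119954, + strand: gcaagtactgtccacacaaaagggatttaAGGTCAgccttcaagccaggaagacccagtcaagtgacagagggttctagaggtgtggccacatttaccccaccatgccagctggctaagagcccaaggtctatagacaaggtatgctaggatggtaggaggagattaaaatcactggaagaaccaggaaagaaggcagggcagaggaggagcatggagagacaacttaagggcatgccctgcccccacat
Cyp2b9 promoter, chr7:26173159-26173408, + strand: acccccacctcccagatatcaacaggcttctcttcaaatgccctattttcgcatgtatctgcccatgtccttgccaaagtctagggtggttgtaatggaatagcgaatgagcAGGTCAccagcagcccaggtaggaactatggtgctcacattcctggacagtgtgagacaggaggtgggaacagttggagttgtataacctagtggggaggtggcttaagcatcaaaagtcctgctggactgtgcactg

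Promoters were found for 27 of the 33 genes, and both strands were searched. TATAAA stood in 15 of the 27, against 12.4% of all 32851 RefSeq promoters of this length. CTTTGAT stood in 2 of the 27, Cyp2c29 and Cyp2c39, against 3.21% of all promoters, and AGGTCA in 10 of the 27, against 14%. A gene was counted when any of its listed windows held the motif, while the shares of all promoters are per window. Cyp2c39 held AGGTCA only in the window not shown. TTCNNNGAA, the palindrome of STAT factors, was in 0 of the 27 windows and in 7.02% of all promoters. GCGTG, the core of the dioxin response element bound by Ahr, was in 3 of the 27, among them Cyp1a1, and in 28.2% of all promoters. Counted from the start site, TATAAA on either strand began at -31 in Cyp2e1 and -19 in Cyp2c29. Among the 15 genes it began as far upstream as -128 in Cyp2j5 and -234 in Cyp3a11, so not every match lay near the start. ATCAAAG began at -119 in Cyp2c29 and -96 in the Cyp2c39 window shown, one of 2 that RefSeq lists for this gene. No 2 of the motifs overlapped in these windows. A match of letters is a description of the window, and its absence says nothing about the factor.

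Array medians lay between 6.69 and 6.85 on the log2 scale, and each array had between 14455 and 15305 probe sets over log2 4. The mean signal of 6 hepatocyte markers lay between 13.8 and 13.9 in normal livers and between 12.8 and 14.0 in WT tumours, the widest of the tumour ranges, with none of the 6 below log2 4. The tumour markers Afp and Gpc3 averaged 3.22 to 3.75 in normal livers and 8.73 to 12.8 in tumours. The neutrophil markers S100a8 and S100a9 rose in WT and mutant tumours, 2 of 2 tested in each, with median differences of 2.36 and 4.25. Of all genes 18.8% and 11.7% rose there. Both markers were below log2 4 in all normal livers, so that the size of these rises is uncertain. In WT tumours S100a9 was above log2 4 on 3 of 7 arrays. A further neutrophil marker, Mpo, was below log2 4 on all arrays and was not tested. The plasma-cell marker Jchain rose by 3.64 (SE 0.99) in mutant tumours, while the B-cell markers Cd79a, Cd79b and Ms4a1 were below log2 4 throughout. Of 6 macrophage markers 1, Cd68, rose by 2.07 (SE 0.52) in WT tumours, a share near the 18.8% of all genes that rose. Cd68 was below log2 4 in all normal livers and averaged 4.37 in WT tumours, so that the size of its rise is uncertain. The part of these cells in the P450 results was not tested. Endothelial markers averaged 5.24 to 6.17 in normal livers and 2.89 to 6.99 in WT tumours, and all 4 markers of T and NK cells were below log2 4 throughout. For Gapdh the signal at the 3′ end less that at the 5′ end, a sign of RNA quality, was 1.37 to 1.61 in normal livers and 0.204 to 1.02 in tumours. For actin it was 3.59 to 4.20 in normal livers and 1.85 to 2.79 in tumours. Both gaps were larger in every normal liver than in any tumour, and their part in the results was not tested. WT tumours 17 and 19 stood apart from the other tumours on the second principal component, which held 14.4% of the variance. Results that rest on them are given with and without them. They were picked from these same arrays, so values without them describe how far a difference rests on them and are no independent test. In such bulk samples fewer cells of a type and less RNA per cell cannot be told apart.

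In WT tumours against normal liver, 17 of the 33 P450 genes fell and 1 rose at an adjusted p under 0.05 in limma, against 20.2% of all genes tested that fell and 18.8% that rose (39% in either direction). The median difference of the 33 genes was -0.95 on the log2 scale, and that of all 9053 genes was -0.01. Of the 17 falls 13 were at least 2-fold, which held for 7.52% of all genes. In Tlr4-mutant tumours 9 P450 genes fell and 2 rose, against 10.5% and 11.7% of all genes (22.3% in either direction), with a median difference of -0.74. In antibiotic tumours 3 fell and 1 rose, against 6.91% and 8.11% of all genes (15% in either direction), with a median of -0.51. The share called in the antibiotic comparison, 12.1% of the members, was thus close to that of all genes. The 3 comparisons share the same 3 normal livers. Leaving out single arrays moved the counts. The WT count of 18 became 8, 7 and 8 without normal liver 1, 2 and 3, and 11 without WT tumour 20. The mutant count of 11 became 3, 4 and 3 without each normal liver, and 6, 5 and 5 without mutant tumours 24, 25 and 26. The antibiotic count of 4 became 2 without normal liver 1 and 1 without normal liver 3 or antibiotic tumour 29, and 6 without antibiotic tumour 28. Without WT tumours 17 and 19 the WT count was 19.

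**Figure D1:**
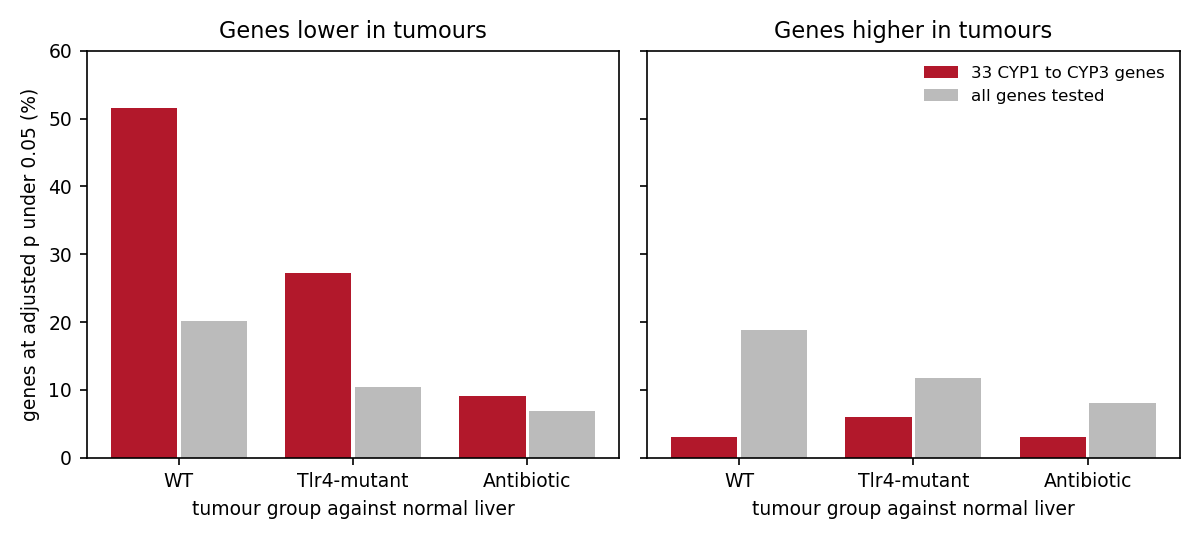
Percent of genes called lower (left) and higher (right) against normal liver at an adjusted p under 0.05 in limma, for the 33 P450 genes (red) and for all 9053 genes tested (grey), in each tumour group. The red bar is the taller one among lower genes in WT and Tlr4-mutant tumours (51.5% against 20.2%, and 27.3% against 10.5%), and the shorter one among higher genes in all 3 groups.

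Counted without a test, many P450 genes had tumour and normal arrays that did not overlap. All WT tumours lay below all normal livers for 18 of the 33 P450 genes, against 20% of all genes, and above them for 1, against 18.4%. All mutant tumours lay below normal livers for 20 P450 genes, against 18.9% of all genes, and above for 3, against 20.2%. All antibiotic tumours lay below for 15, against 22.5%, and above for 1, against 19.8%. Per tumour, between 19 and 28 of the 33 genes lay below the range of the normal livers and between 3 and 9 above it. Of all genes, 36.9% to 44.7% per tumour lay below that range and 34.6% to 44.4% above it.

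**Figure D2:**
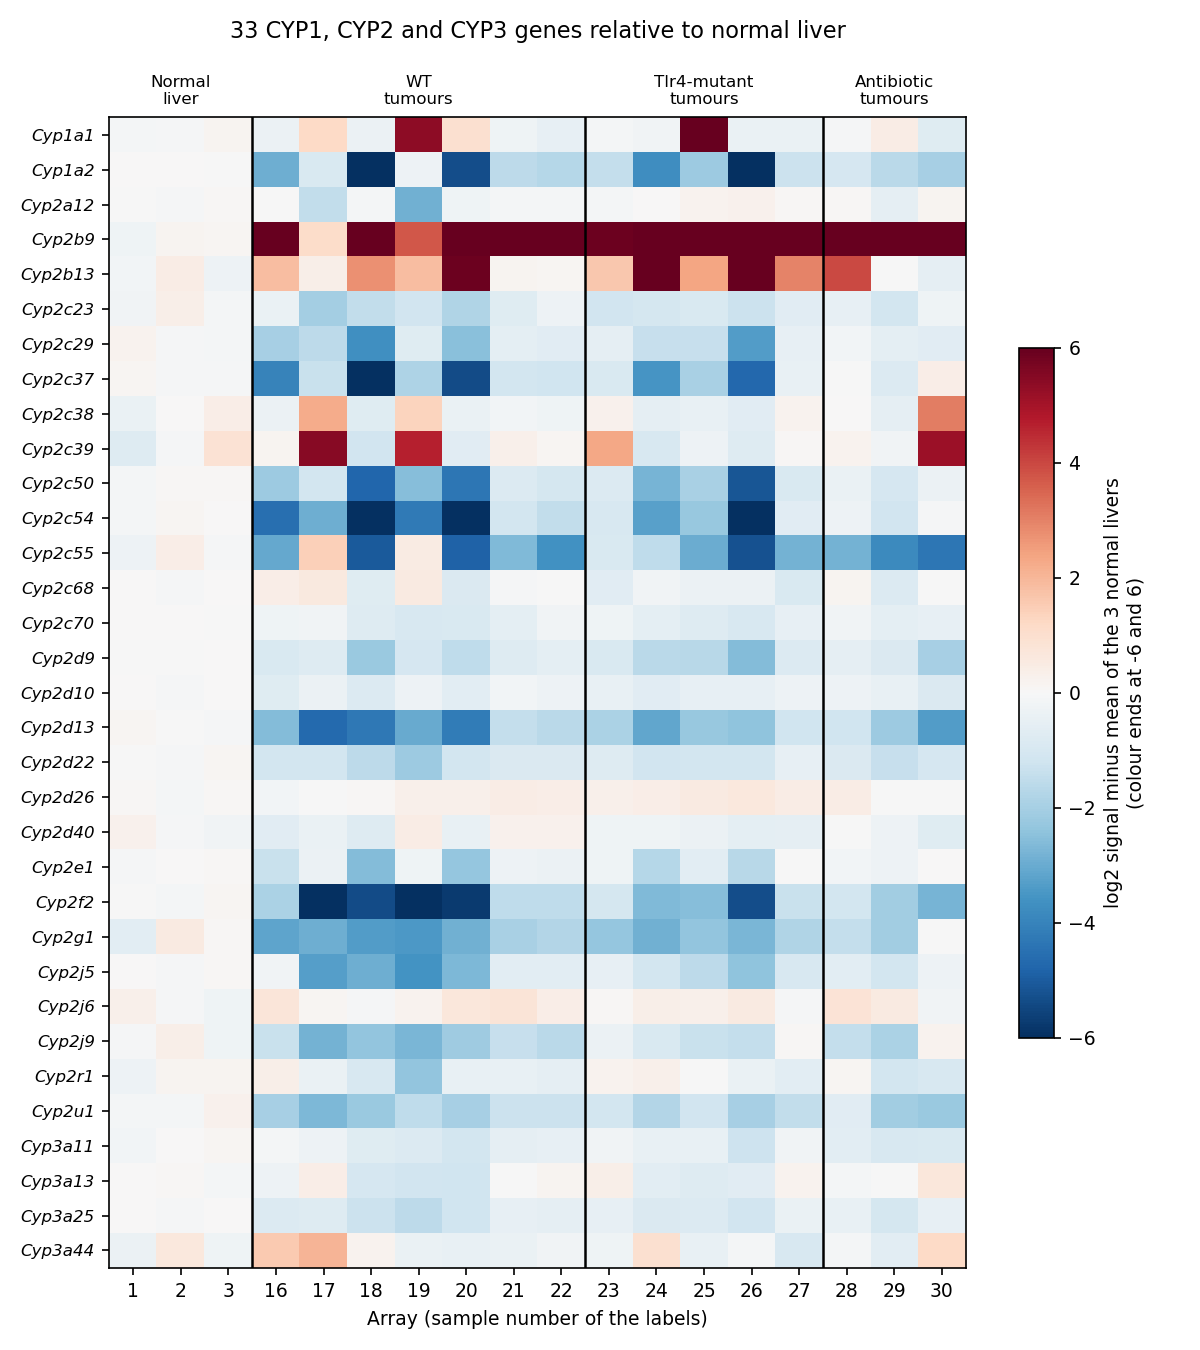
Log2 signal of each of the 33 P450 genes minus its mean over the 3 normal livers, on each of the 18 arrays, with blue for lower and red for higher and the colours ending at -6 and 6. Cyp2b9 is red in nearly every tumour, Cyp2f2, Cyp2d13 and Cyp2g1 are blue in most, and Cyp1a2, Cyp2c37 and Cyp2c54 are darkest in WT tumours 18 and 20 and mutant tumour 26.

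The female-biased member Cyp2b9, a steroid and drug hydroxylase of the CYP2B cluster on chromosome 7, had the largest rise. Its log2 signal was 1.34, 1.74 and 1.68 in the normal livers, all below log2 4. In WT tumours it ranged from 2.67 in tumour 17 and 5.33 in tumour 19 to 9.53 in tumour 20, with a median of 7.99. It was 7.49, 9.26, 9.73, 10.36 and 9.06 in mutant tumours and 8.40, 8.64 and 8.29 in antibiotic tumours. Every tumour lay above every normal liver, and WT tumour 17 was the lone tumour below log2 4. Set against log2 4 in place of the dim normal livers, Cyp2b9 was at least 9.71-fold higher in WT tumours (limma adjusted p = 0.00116), at least 36.3-fold higher in mutant tumours (adjusted p = 0.000375) and at least 21.7-fold higher in antibiotic tumours (adjusted p = 0.00311). These calls were kept without any single array, with an adjusted p of at most 0.0152.

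Cyp2b13, its female-biased neighbour, was at 2.45, 3.03 and 2.31 in normal livers. In mutant tumours it was 4.19, 9.43, 4.95, 9.60 and 5.55, all above the normal livers, and the difference of 4.15 (SE 1.46) had a limma adjusted p of 0.0508. In WT tumours it ranged from 2.69 to 8.49 with a median of 4.45, and in antibiotic tumours it was 6.58, 2.59 and 2.04, so that both groups overlapped with normal liver. Without mutant tumour 23 or mutant tumour 27 the mutant difference of Cyp2b13 passed the threshold, with differences between 3.44 and 4.79 over the arrays left out. The female-biased Cyp3a44 differed from normal liver by 0.33 (SE 0.57) in WT tumours and did not pass. Of the 4 female-biased P450 genes tested, which include Cyp17a1 of another family, Cyp2b9 was the one that passed, in each comparison with normal liver.

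The male-biased members were lower. Cyp2d9, a steroid 16α-hydroxylase, had log2 signals of 13.29, 13.31 and 13.33 in normal livers, 11.07 to 12.74 (median 12.42) in WT tumours, 10.69 to 12.49 in mutant tumours and 11.30 to 12.79 in antibiotic tumours. No tumour reached the normal range, and Cyp2d9 fell 2.15-fold in WT tumours (limma adjusted p = 0.0391) and 2.89-fold in mutant tumours (adjusted p = 0.0177). The antibiotic difference of -1.13 (SE 0.48) did not pass (adjusted p = 0.115). Both calls were lost without any one of the 3 normal livers, and the WT call also without WT tumour 18 or 20, with adjusted p-values up to 0.101 and, for the mutant, 0.0587. The probe set of Cyp2d9 carries a suffix that marks sequence shared between transcripts, which can be those of the same gene.

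Cyp2u1, a hydroxylase of long-chain fatty acids, was at 5.93, 5.93 and 6.33 in normal livers. It ranged from 3.38 to 4.79 (median 4.09) in WT tumours, from 4.05 to 4.98 in mutant tumours, and was 5.36, 4.0 and 3.85 in antibiotic tumours, all below the normal livers. Cyp2u1 fell in all 3 comparisons, by 1.84 (SE 0.34) in WT, 1.49 (SE 0.36) in mutant and 1.66 (SE 0.40) in antibiotic tumours, with limma adjusted p-values of 0.000836, 0.00855 and 0.0127. The antibiotic call was lost without normal liver 3 or antibiotic tumour 29 (adjusted p up to 0.0636). With Cyp4a12a and Cyp7b1 of other families, 4 of 4 male-biased P450 genes fell in WT tumours, where Cyp4a12a differed by -5.03 (SE 1.63) and Cyp7b1 by -3.56 (SE 1.18). In mutant tumours 2 of the 4 fell, and in antibiotic tumours 1, where 20.2%, 10.5% and 6.91% of all genes fell in the 3 comparisons. Of 9 genes of growth hormone signalling tested, 3 fell in WT, 2 in mutant and 0 in antibiotic tumours, and none rose, beside the same shares of all genes. Their differences were negative for 7, 6 and 8 of the 9. The growth hormone receptor Ghr was among the falls, by 1.11 (SE 0.24) in WT tumours and 0.93 (SE 0.26) in mutant tumours. A link to the male-biased genes was not tested.

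**Figure D3:**
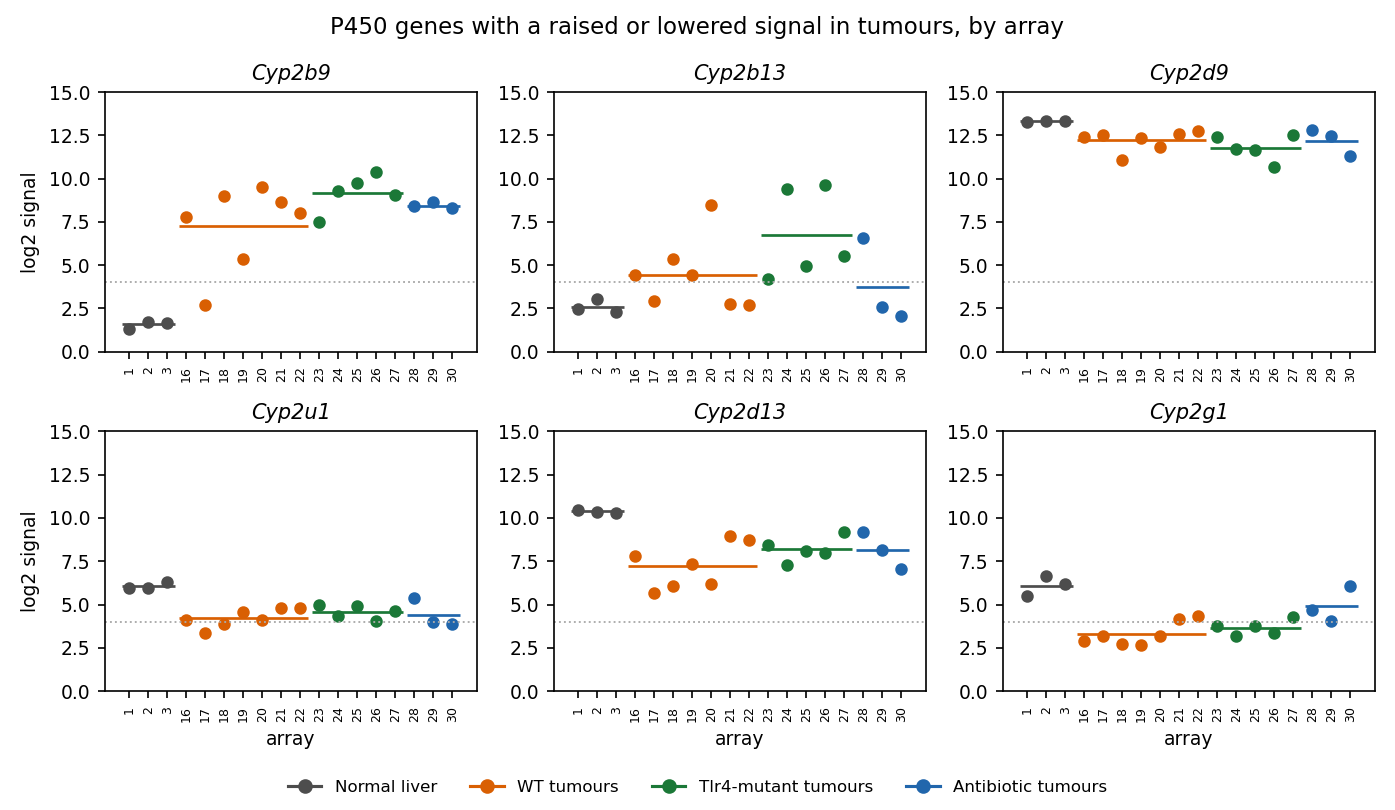
Log2 signal of Cyp2b9, Cyp2b13, Cyp2d9, Cyp2u1, Cyp2d13 and Cyp2g1 on each of the 18 arrays, with a line at each group's mean and a dotted line at log2 4. Cyp2b9 lies above every normal liver in all 15 tumours, Cyp2b13 is scattered among tumours from 2.04 to 9.60, and the other 4 genes are lower in nearly all tumours, apart from Cyp2g1 in antibiotic tumour 30 at 6.07.

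The pericentral members fell in WT tumours, unevenly between lesions. Of 8 pericentral P450 genes tested, 7 of them in these families, 6 fell and none rose in WT tumours, where 20.2% of all genes fell, with a median difference of -2.13. In mutant and in antibiotic tumours 1 of the 8 fell, where 10.5% and 6.91% of all genes did. Cyp27a1, of another family, was 1 of the 6. Cyp2c54, an arachidonic acid epoxygenase, had the largest of these falls. It was at 11.65, 11.84 and 11.75 in normal livers and ranged from 4.41 in tumour 18 and 5.37 in tumour 20 to 10.65 in tumour 21, with a median of 7.50, among WT tumours. In mutant tumours it was 10.78, 8.47, 9.46, 4.43 and 11.05, and in antibiotic tumours 11.44, 10.60 and 11.66. The WT and mutant tumours all lay below the normal livers, while antibiotic tumours overlapped with them. Cyp2c54 fell 15.9-fold in WT tumours (limma adjusted p = 0.0286). The mutant difference was -2.91 (SE 1.43, adjusted p = 0.152) and the antibiotic one -0.51 (SE 1.60, adjusted p = 0.855). The WT call was lost without any one normal liver or WT tumour 20 (adjusted p up to 0.0824).

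Cyp2c37, a target of CAR, was at 11.06, 10.88 and 10.88 in normal livers and ranged from 4.95 to 9.82 (median 9.10) in WT tumours. It was 10.05, 7.38, 8.99, 6.24 and 10.49 in mutant tumours and 10.90, 10.11 and 11.34 in antibiotic tumours. Antibiotic tumours alone reached the normal range. Cyp2c37 fell 7.85-fold in WT tumours (limma adjusted p = 0.0397), a call lost without any one normal liver or without WT tumour 16, 18 or 20 (adjusted p up to 0.106).

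Cyp2c50, an epoxygenase like Cyp2c54, was lower in every tumour than in any normal liver. Normal livers were at 12.82, 13.01 and 12.99, WT tumours at 8.20 to 12.11 (median 10.74), mutant tumours at 7.83 to 12.13 and antibiotic tumours at 11.95 to 12.56. Cyp2c50 fell 5.3-fold in WT tumours (limma adjusted p = 0.0453), and the call was lost without any one normal liver or without WT tumour 16, 18, 19 or 20 (adjusted p up to 0.115). The mutant difference was -2.32 (SE 0.96, adjusted p = 0.092).

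Cyp2c29, a main CAR-induced epoxygenase of mouse liver, was at 13.48, 13.19 and 13.16 in normal livers, 9.61 to 12.71 (median 11.71) in WT tumours, 12.76, 11.91, 11.90, 9.93 and 12.78 in mutant tumours, and 13.11, 12.71 and 12.60 in antibiotic tumours. Every tumour was below every normal liver. Cyp2c29 fell 3.2-fold in WT tumours (limma adjusted p = 0.046), a call lost without any one normal liver or without WT tumour 16, 17, 18 or 20 (adjusted p up to 0.131). The differences of -1.42 (SE 0.67) in mutant and -0.47 (SE 0.75) in antibiotic tumours did not pass.

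Cyp1a2, which oxidises caffeine and activates aromatic amines, was at 13.13, 13.13 and 13.07 in normal livers. In WT tumours it ranged from 5.89 in tumour 18 and 7.78 in tumour 20 to 12.78 in tumour 19, with a median of 11.38. It was 11.70, 9.37, 10.95, 6.34 and 11.80 in mutant tumours and 12.12, 11.47 and 11.12 in antibiotic tumours. All 15 tumours lay below all normal livers, yet the differences of -2.86 (SE 1.32), -3.08 (SE 1.40) and -1.54 (SE 1.56) had limma adjusted p-values of 0.0967, 0.122 and 0.523. Without WT tumours 17 and 19 the WT difference of Cyp1a2 was -3.75 with a limma adjusted p of 0.0359. These tumours had the highest WT values of Cyp1a2, so that leaving them out deepens the difference by the choice itself.

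Cyp2e1, the ethanol-inducible enzyme that activates CCl4 and nitrosamines, was at 13.86, 13.94 and 13.98 in normal livers and at 11.33 to 13.68 (median 13.56) in WT tumours, all below normal liver. It was 13.68, 12.23, 13.27, 12.28 and 13.91 in mutant tumours and 13.76, 13.62 and 13.93 in antibiotic tumours, and both groups overlapped with normal liver. The WT difference of -1.07 (SE 0.51) had a limma adjusted p of 0.108, and without WT tumours 17 and 19 it was -1.38 with an adjusted p of 0.049. Both of these tumours lay above the WT median of Cyp2e1, so that leaving them out deepens the difference by the choice itself.

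Cyp2f2, a periportal enzyme that oxidises naphthalene and styrene, had the largest fall of the family in WT tumours. Its signal was 13.35, 13.25 and 13.46 in normal livers. It was 2.92 and 3.58 in WT tumours 17 and 19, 7.99 and 7.60 in WT tumours 18 and 20, and 11.46, 11.81 and 11.85 in WT tumours 16, 21 and 22. In mutant tumours it was 12.28, 10.71, 10.81, 8.05 and 12.00, and in antibiotic tumours 12.27, 11.29 and 10.58. All tumours lay below all normal livers, and WT tumours 17 and 19 were below log2 4. Cyp2f2 fell 36.3-fold in WT tumours (limma adjusted p = 0.0249), or at least 31.2-fold with those 2 tumours set at log2 4, and by 3.21 on the log2 scale (adjusted p = 0.0315) without WT tumours 17 and 19. The call was lost without any one of the normal livers (adjusted p up to 0.0733). The differences of -2.58 (SE 1.81) in mutant and -1.97 (SE 2.02) in antibiotic tumours did not pass. The probe set of Cyp2f2 carries a suffix that marks sequence shared between transcripts, which can be those of the same gene.

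**Figure D4:**
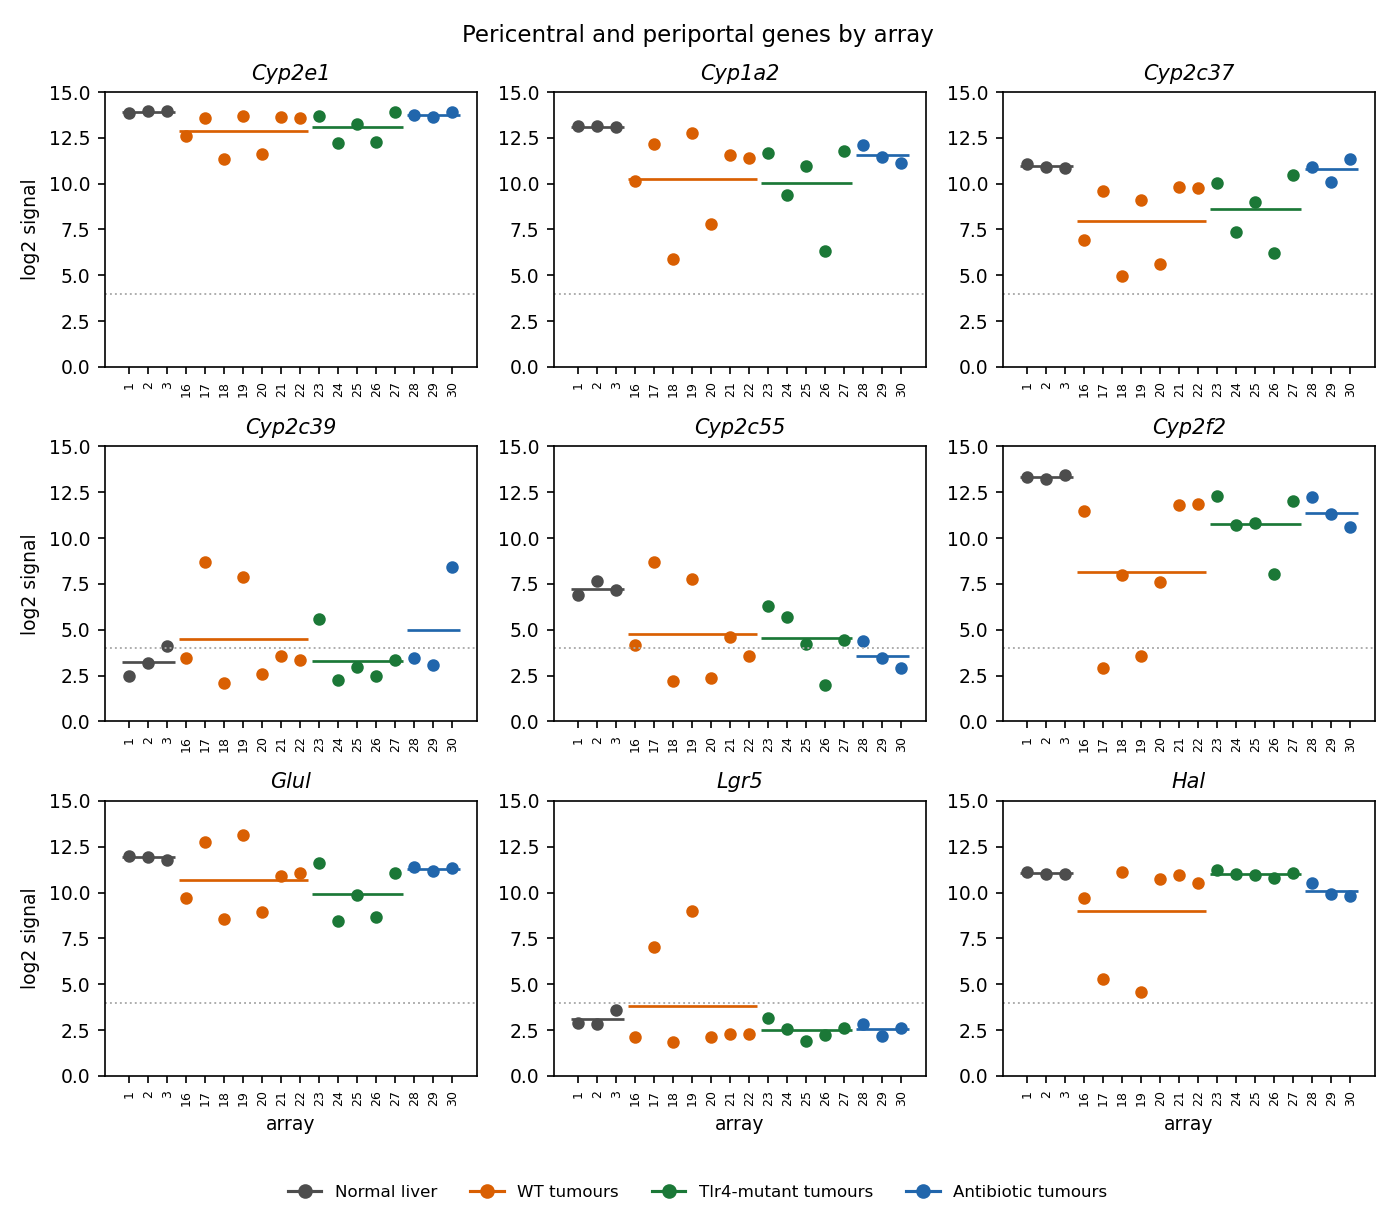
Log2 signal on each of the 18 arrays for the P450 genes Cyp2e1, Cyp1a2, Cyp2c37, Cyp2c39, Cyp2c55 and Cyp2f2 and for Glul, Lgr5 (pericentral) and Hal (periportal), with a line at each group's mean and a dotted line at log2 4. WT tumours 17 and 19 are high for Cyp2c39, Glul and Lgr5 and low for Cyp2f2 and Hal, and WT tumours 18 and 20 are low for Cyp1a2, Cyp2c37 and Cyp2e1.

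The lesions differed in which P450 genes were low. WT tumours 17 and 19 combined Cyp1a2 at 12.19 and 12.78 and Cyp2e1 at 13.59 and 13.68, the highest WT values for Cyp1a2, with the lowest Cyp2f2. They also had Cyp2c39, a retinoic acid hydroxylase, at 8.70 and 7.90, where normal livers were at 2.48, 3.16 and 4.09 and the other WT tumours at 2.10 to 3.56. Cyp2c55, which oxidises arachidonic acid, was 8.68 and 7.75 in these 2 tumours, above the normal livers at 6.92, 7.65 and 7.16, and 2.19 to 4.61 in the other WT tumours. The pericentral genes Glul, at 12.7 and 13.1, and Lgr5, at 7.04 and 9.01, were also above the normal livers there, and Hal, a periportal gene, was at 5.26 and 4.58 against 11 or just above in normal liver. Of the 10 pericentral genes outside the P450 families that were on the array, 7 lay above the normal livers in each of these 2 tumours, Rgn and Aldh1a1 lay below them and Slc1a2 was within their range. All 8 periportal genes lay below the normal livers in both. Glul is glutamine synthetase, and Lgr5 and Axin2 are textbook targets of β-catenin. Axin2 was 6.08 and 7.88 in WT tumours 17 and 19 and at most 3.59 on the other 16 arrays.

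Cyp2c39 was also high in antibiotic tumour 30, at 8.40, where Cyp2c38 was 6.38. There Lgr5 was 2.61 and Cyp2f2 10.58, unlike WT tumours 17 and 19. In mutant tumours Cyp2c39 was at most 5.56, and Cyp2c38 was at most 5.52 in WT and 3.55 in mutant tumours. Neither Cyp2c39 nor Cyp2c38 passed in any comparison. Over all WT tumours the Cyp2c55 difference was -2.48 (limma adjusted p = 0.117). It was -3.85 (adjusted p = 0.00298) without WT tumours 17 and 19, and -3.13 (adjusted p = 0.0277) without WT tumour 17 alone. These tumours had the highest WT values of Cyp2c55, so that leaving them out deepens the difference by the choice itself. In antibiotic tumours Cyp2c55 was 4.39, 3.44 and 2.91, all below normal liver, and the difference of -3.66 (SE 1.44) did not pass (adjusted p = 0.0932).

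WT tumours 18 and 20 and mutant tumour 26 were low in the pericentral members. Cyp1a2, Cyp2c37 and Cyp2c54 each had their 3 lowest signals there, and Cyp2c55 was 2.19, 2.37 and 2.01. Glul was 8.54, 8.92 and 8.69 there, and all 10 pericentral genes lay below the normal livers in each of the 3 lesions. Neither trait was particular to them. All 10 also lay below in WT tumours 16, 21 and 22, mutant tumours 24, 25 and 27 and antibiotic tumours 28 and 30. Glul was 8.47 in mutant tumour 24. Periportal genes were mixed in the 3 lesions. Cyp2f2 was 7.99, 7.60 and 8.05, far below normal liver, Pck1 was 10.6 and 10.5 in WT tumours 18 and 20 and 13.2 in mutant tumour 26, and Hal was 11.1, 10.8 and 10.8. Of the 8 periportal genes 5, 6 and 4 lay below the normal livers and 3, 2 and 2 above them in the 3 lesions. Some other tumours had similar splits, with 6 below and 2 above in WT tumour 16 and 5 below and 3 above in mutant tumour 23. In WT tumours 18 and 20 and mutant tumour 26, Cyp2b13 was 5.35, 8.49 and 9.60. WT tumours 21 and 22 lay closest to normal liver of the WT group for Cyp2c54, at 10.65 and 10.29, and had 1 gene each at least 4-fold below the normal mean, against 14 in tumour 18 and 12 in tumour 20.

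This unevenness was larger among the P450 genes than among all genes. The median SD between WT tumours was 1.02 for the 33 genes and 0.31 for all 9053, and 17 of the 33 had an SD above 1, against 7.95% of all genes. In mutant tumours the medians were 0.64 and 0.27, with 11 of 33 above 1 against 4.18%, and in antibiotic tumours 0.52 and 0.31, with 6 of 33 against 9.28%. In normal livers the medians were 0.12 and 0.15, and 0 of the 33 had an SD above 1. Each gene of the CYP2C cluster is one of several close copies on chromosome 19, and probe sets can read more than 1 of them.

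The remaining epoxygenases were those of the CYP2J subfamily and Cyp2c23. Of 9 arachidonic acid epoxygenases tested, 6 fell in WT tumours, with a median difference of -2.0, against 20.2% of all genes that fell. In mutant tumours 1 fell, a share near the 10.5% of all genes, and in antibiotic tumours 0 fell by limma, against 6.91%. Cyp2j5, a hepatic and renal epoxygenase, was at 12.84, 12.77 and 12.89 in normal livers, 9.24 to 12.63 (median 10.16) in WT tumours, 10.42 to 12.35 in mutant tumours and 11.72 to 12.54 in antibiotic tumours. Every tumour lay below every normal liver, and Cyp2j5 fell 4.0-fold in WT tumours (limma adjusted p = 0.0263). The call was lost without any one normal liver (adjusted p up to 0.0768) and without WT tumours 17 and 19 together (adjusted p = 0.07). A second probe set of Cyp2j5 gave a WT difference of -3.14 (SE 0.95).

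Cyp2j9 was at 5.58, 6.0 and 5.40 in normal livers and 2.82 to 4.34 (median 3.50) in WT tumours, with no overlap. It was 5.29, 4.75, 4.33, 4.22 and 5.73 in mutant tumours and 4.21, 3.74 and 5.88 in antibiotic tumours, and both overlapped with normal liver. Cyp2j9 fell in WT tumours (limma adjusted p = 0.00256), a call kept without any single array (adjusted p at most 0.0188). With 3 of 7 WT arrays above log2 4 and the others set at it, the fall was at least 2.96-fold. Cyp2c23 fell by 1.12 (SE 0.33) in WT and 1.02 (SE 0.35) in mutant tumours. Its WT call was lost without normal liver 2 (limma adjusted p = 0.0766). Its mutant call was lost on leaving out any array of that comparison except mutant tumour 27 (adjusted p up to 0.17). Sequence shared with other transcripts is marked by the suffix of the Cyp2c23 probe set. Cyp2j6 differed by 0.41 (SE 0.23) in WT tumours, and its second probe set by -0.47 (SE 0.27), so that the 2 probe sets disagree in sign and neither passed.

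Cyp2g1, known mainly from olfactory mucosa, was at 5.48, 6.62 and 6.19 in normal livers. It was 2.65 to 4.32 (median 3.18) in WT tumours, 3.78, 3.21, 3.74, 3.34 and 4.28 in mutant tumours, and 4.68, 4.03 and 6.07 in antibiotic tumours. WT and mutant tumours lay below all normal livers, most of them under log2 4, and antibiotic tumour 30 was within the normal range. The antibiotic differences of Cyp2g1 and Cyp2j9 did not pass, at -1.17 (SE 0.51, limma adjusted p = 0.127) and -1.04 (SE 0.53, adjusted p = 0.186). Without antibiotic tumour 30 they were -1.74 (adjusted p = 0.0314) and -1.68 (adjusted p = 0.0365). That tumour had the highest antibiotic value of both genes, so that leaving it out favours a pass. Cyp2g1 fell in WT tumours (limma adjusted p = 0.000247) and in mutant tumours (adjusted p = 0.00193), and both calls held without any single array. Since 2 of 7 WT and 1 of 5 mutant arrays exceeded log2 4, the folds are lower limits, at least 4.07-fold and at least 4.11-fold with the dimmer arrays set at log2 4.

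Among the other members of the CYP2D cluster on chromosome 15, Cyp2d13 was at 10.48, 10.36 and 10.28 in normal livers, 5.69 to 8.93 (median 7.34) in WT tumours, 8.46, 7.26, 8.10, 7.98 and 9.20 in mutant tumours, and 9.16, 8.17 and 7.02 in antibiotic tumours. No tumour overlapped with the normal livers. Cyp2d13 fell 8.73-fold in WT tumours (limma adjusted p = 0.00203), which held without any single array, and 4.51-fold in mutant tumours (adjusted p = 0.0351), which was lost without any one normal liver or mutant tumour 24, 25 or 26 (adjusted p up to 0.104). The antibiotic difference of -2.25 (SE 0.78) had a limma adjusted p of 0.0604, and 0.0368 without antibiotic tumour 28, which had the highest antibiotic value of Cyp2d13. A second probe set of Cyp2d13 with no mark of shared sequence gave -2.53 (SE 0.61), -1.83 (SE 0.64) and -2.34 (SE 0.72) in the 3 comparisons.

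Cyp2d22, often taken as the mouse counterpart of the human drug-metabolising CYP2D enzyme, fell in all 3 groups, by 1.26 (SE 0.24) in WT, 0.93 (SE 0.26) in mutant and 1.09 (SE 0.29) in antibiotic tumours. The limma adjusted p-values were 0.00123, 0.0175 and 0.02. The WT call held without any single array, and the others were lost without normal liver 1 or 3, and in the antibiotic group also without tumour 29 (adjusted p up to 0.0713 and 0.0922). Cyp2d10 fell by 0.48 (SE 0.15) in WT and 0.48 (SE 0.16) in mutant tumours, but both calls were lost without any one of the normal livers (adjusted p up to 0.0713 and 0.121), and the mutant call was also lost without mutant tumour 23, 24, 25 or 26. In antibiotic tumours Cyp2d10 differed by -0.52 (adjusted p = 0.0582), and passed without tumour 28 (adjusted p = 0.0357).

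Cyp2d26 ran the other way. It was at 12.54, 12.38 and 12.53 in normal livers and 12.80, 12.90, 13.04, 13.12 and 12.95 in mutant tumours, with no overlap, and rose by 0.48 (SE 0.15, limma adjusted p = 0.0325). The call was lost without any one normal liver or mutant tumour 25 or 26 (adjusted p up to 0.126). WT tumours at 12.32 to 12.95 (median 12.77) and antibiotic tumours at 12.92, 12.48 and 12.48 overlapped with normal liver. Cyp2d40 did not pass in any comparison with normal liver, with differences of -0.19, -0.40 and -0.33.

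The CYP3A enzymes, which hydroxylate steroids and a large share of drugs under the control of PXR, each differed from normal liver by less than 2-fold. Cyp3a11, the main enzyme of this kind in mouse liver, was at 13.59, 13.80 and 13.87 in normal livers, 12.65 to 13.65 (median 13.23) in WT tumours, 13.53, 13.32, 13.33, 12.50 and 13.55 in mutant tumours, and 13.13, 12.77 and 12.82 in antibiotic tumours. WT tumours overlapped with normal liver at tumour 16, and the other groups did not overlap. Cyp3a11 fell 1.5-fold in WT tumours (limma adjusted p = 0.0472) and 1.79-fold in antibiotic tumours (adjusted p = 0.0417). The WT call held only without WT tumour 16 or 17 among the arrays left out, and the antibiotic call only without antibiotic tumour 28 (adjusted p up to 0.149 and 0.131).

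Cyp3a25 fell by 0.95 (SE 0.22) in WT tumours (limma adjusted p = 0.00406), which held without any single array, and by 0.74 (SE 0.24) in mutant tumours (adjusted p = 0.0348), which was lost without any one normal liver or mutant tumour 24, 25 or 26 (adjusted p up to 0.101). Cyp3a13 differed by -0.44, -0.32 and 0.18 in the 3 comparisons and did not pass. Of 6 targets of CAR and PXR tested, 4 fell in WT tumours (Cyp2c29, Cyp2c37, Cyp3a11 and Cyp3a25), Cyp3a25 in mutant tumours and Cyp3a11 in antibiotic tumours. Of all genes 20.2%, 10.5% and 6.91% fell in these comparisons.

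Cyp2b10, the standard target of CAR, did not meet the filter but was seen in normal liver. One of its probe sets was at 3.90, 4.52 and 5.27 in normal livers and at most 2.01, 2.20 and 2.08 in WT, mutant and antibiotic tumours, and a second probe set at 3.70, 4.49 and 4.64 against at most 2.47, 2.79 and 2.12. All normal livers lay above all 15 tumours on both. Both probe sets carry a suffix that marks shared sequence. In the fit without a filter the gene was represented by another probe set, which was below log2 4 on all arrays and was lower in tumours with limma adjusted p-values of 0.000501, 0.00265 and 0.00483. No fold change is given for that probe set.

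Cyp1a1, the Ahr target that oxidises polycyclic hydrocarbons, was below log2 4 in all normal livers, at 2.79, 2.86 and 3.09, and on most tumour arrays. It was 8.28 in WT tumour 19 and 9.22 in mutant tumour 25, while the other WT tumours lay at 2.43 to 4.13, the other mutant tumours at 2.50 to 2.78 and the antibiotic tumours at 2.82, 3.35 and 2.19. No comparison passed for Cyp1a1. Ahr itself differed from normal liver by 0.19 (SE 0.60), -0.66 (SE 0.63) and 0.10 (SE 0.71).

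The other members were described by their ranges. Cyp2c70, a bile acid hydroxylase, fell by 0.56 (SE 0.19) in WT and 0.61 (SE 0.20) in mutant tumours, and both calls were lost without any one normal liver, the WT call also without WT tumour 20 and the mutant call without mutant tumour 24, 25 or 26 (limma adjusted p up to 0.0812 and 0.106). Cyp2a12, a steroid 7α-hydroxylase, was 10.92 and 9.49 in WT tumours 17 and 19 and 11.86 to 12.67 on the other 16 arrays. Cyp2r1, a vitamin D 25-hydroxylase, was 5.18 in WT tumour 19 and 6.47 to 7.92 elsewhere, and Cyp2c68 was 10.55 to 12.05 on all arrays. None of these 3 passed against normal liver.

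**Figure D5:**
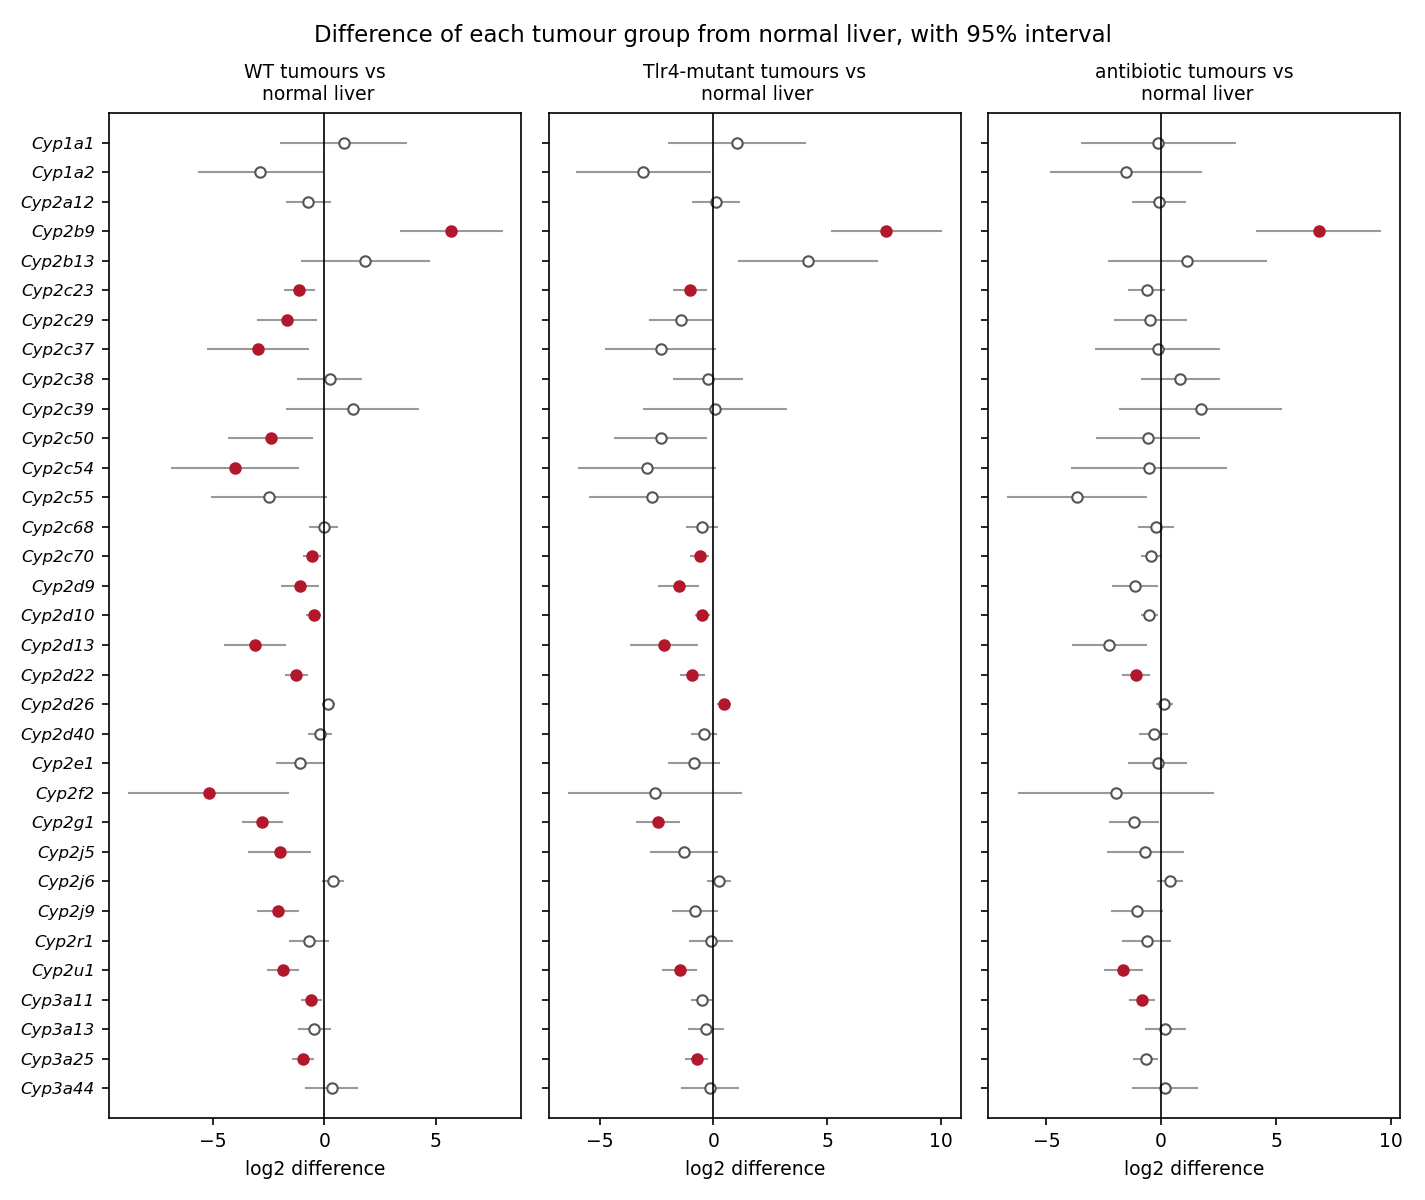
Log2 difference of each tumour group from normal liver for the 33 P450 genes, with the 95% interval of the limma fit and filled points for an adjusted p under 0.05. In WT tumours 17 filled points lie left of 0 and Cyp2b9 lies right of it, and the widest intervals are those of Cyp2f2, Cyp2c39, Cyp2b13, Cyp1a1, Cyp2c54 and Cyp1a2.

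No P450 gene passed in a comparison between tumour groups. By limma 0 of 33 passed in Tlr4-mutant against WT tumours, antibiotic against WT tumours and mutant against antibiotic tumours, where 0.265%, 0.0884% and 0.232% of all genes passed. At an unadjusted p under 0.05 there were 2, 4 and 2 P450 genes, against 16.7%, 15.5% and 10.3% of all genes. The intervals were wide, so that these comparisons do not show that the groups were alike.

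In mutant against WT tumours the smallest p belonged to Cyp2j9, 1.27 higher (95% interval 0.46 to 2.07, limma adjusted p = 0.166), with overlapping groups. Cyp2d26 was 0.29 higher (0.03 to 0.54, adjusted p = 0.254), and Cyp2a12 0.82 higher (-0.03 to 1.67, adjusted p = 0.317). The difference for Cyp2f2 was 2.60 (-0.47 to 5.66) and for Cyp2b13 2.30 (-0.17 to 4.77). Cyp2e1 differed by 0.22 (-0.70 to 1.13).

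In antibiotic against WT tumours Cyp2g1 was 1.61 higher (95% interval 0.70 to 2.53, limma adjusted p = 0.156). Cyp2c37 was 2.81 higher (0.52 to 5.11, adjusted p = 0.247), and all 3 antibiotic tumours, at 10.11 to 11.34, lay above all 7 WT tumours, the highest of which was 9.82. It was the only P450 gene whose 2 groups did not overlap, against 4.04% of all genes. Cyp2c54 was 3.48 higher (0.61 to 6.34, adjusted p = 0.249), and Cyp2j9 1.02 higher (0.07 to 1.97, adjusted p = 0.295). In mutant against antibiotic tumours Cyp2g1 was lower by 1.25 (difference -1.25, interval -2.23 to -0.28, adjusted p = 0.35), Cyp2d26 was 0.33 higher (0.02 to 0.65, adjusted p = 0.457), and Cyp2b13 was 3.01 higher (-0.07 to 6.09, adjusted p = 0.497).

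Among 18 regulators of P450 genes tested, 6 fell and 1 rose in WT tumours, where 20.2% of all genes fell and 18.8% rose. The share called in either direction was close to the 39% of all genes. Nr1i3, the gene of CAR, fell by 2.46 (SE 0.81, limma adjusted p = 0.0248) in WT tumours and by 2.74 (SE 0.86, adjusted p = 0.0313) in mutant tumours, and in antibiotic tumours the difference was -0.72 (SE 0.96, adjusted p = 0.637). Cebpa and Cebpb, Ppara, Nr1h4 and Rxrb were the other WT falls, by 0.71 to 1.31 on the log2 scale, and Foxa3 rose by 0.84 (SE 0.19). Nr1i2, the gene of PXR, differed by -0.19 (SE 0.39) and Hnf4a by -0.12 (SE 0.11) in WT tumours, and neither passed. In mutant tumours 3 regulators fell and 1 rose, where 10.5% of all genes fell and 11.7% rose (22.3% in either direction). In antibiotic tumours 1 fell, against 6.91% of all genes that fell and 15% called in either direction.

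Among the partners of microsomal P450 enzymes, 4 of 5 genes tested fell in WT tumours, where 20.2% of all genes fell, each by less than 2-fold. These were Cyb5a by 0.36 (SE 0.11), Cyb5b by 0.75 (SE 0.23), Cyb5r3 by 0.50 (SE 0.18) and Pgrmc1 by 0.34 (SE 0.09). In mutant tumours 1 of the 5 fell and in antibiotic tumours 0, where 10.5% and 6.91% of all genes did. P450 reductase itself was not among the genes tested. Of 11 genes of haem synthesis and breakdown, 1 fell in WT, 1 in mutant and 2 in antibiotic tumours. Of all genes 20.2%, 10.5% and 6.91% fell in these comparisons. Cpox, a late enzyme of haem synthesis, fell by 1.42 (SE 0.34) in WT, 1.92 (SE 0.36) in mutant and 1.55 (SE 0.40) in antibiotic tumours. Alas1, the first enzyme of the pathway, differed by -1.85 (SE 0.86, limma adjusted p = 0.0987) in WT tumours. Of 17 genes of other P450 families, 10 fell and 2 rose in WT tumours, 4 fell and 2 rose in mutant tumours, and 2 fell and 3 rose in antibiotic tumours. Of all genes 20.2%, 10.5% and 6.91% fell and 18.8%, 11.7% and 8.11% rose there, which made 39%, 22.3% and 15% in either direction.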

How the data were processed

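RNA from 18 samples of normal liver or tumour was measured on Affymetrix oligonucleotide arrays. The deposited log2 signals were made by the authors with GCRMA, per the submitters' processing notes, and its version is not given in the sources used here. GCRMA corrects for background and sets the arrays on one scale, so that signals near the floor carry little information. Symbols came from the platform annotation. When a gene had several kept probe sets, the brightest stood for it. Group means were compared in a single limma (3.58.1, R 4.3.3) model of all 18 arrays, two-sided, with p-values adjusted by Benjamini-Hochberg over 9053 genes. Where all arrays of a group were under log2 4, fold changes were taken from log2 4 and are lower limits. Differences on the log2 scale were left as fitted. The number of arrays limits the precision. Values per array are printed for genes that passed with a log2 difference of at least 2, for the 3 smallest p-values between tumour groups, and always for Cyp1a1, Cyp1a2, Cyp2b10, Cyp2c29, Cyp2e1, Cyp2f2 and Cyp3a11. Cyp2c38, Cyp2c39, Cyp2c55, Cyp2d9, Cyp2u1 and others were added after their values were seen. The members and gene lists were chosen with earlier results of these data known. The procedure was tested on simulated data. Other settings tried were the low-signal filter (absent, or log2 6), the choice of probe set (averaged, each separately, or without those of shared sequence), the scaling (centring or quantiles), the variance model (robust, trended or with array weights), a model of the compared groups alone, a threshold of 0.01, and omission of each array in turn or of WT tumours 17 and 19 together. Plots were made in matplotlib 3.10.9 (python 3.11.15).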

Additional observations from a re-analysis of the deposited data

Results flagged for a closer look

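In the groups of 4 to 10 arrays, 66 in all over the 33 P450 genes, 3 had 1 array far from the others by Dixon's criterion, where chance gives about 1 in 20. Cyp1a1 was 9.22 in Tlr4-mutant tumour 25, against 2.50 to 2.78 in the other mutant tumours. Cyp1a1 was also 8.28 in WT tumour 19, against 2.43 to 4.13 in the other WT tumours. Cyp3a11 was 12.5 in Tlr4-mutant tumour 26, against 13.3 to 13.5 in the others. A signal outside the tested genes was that of Cyp2d12, whose probe set reached 4.54 on 1 antibiotic array, against at most 3.88 in normal livers.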

How the results depend on the processing

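No paired analysis was possible because the groups share no replicate numbers. The count of changed P450 genes was within 1.5 times its value under the other settings listed among the methods but for these. With array weights it was 22 in Tlr4-mutant and 7 in antibiotic tumours against normal liver. A fit of only the compared groups gave 7 in antibiotic tumours. At an adjusted p under 0.01 the counts were 7 in WT, 3 in mutant and 1 in antibiotic tumours. Leaving out 1 array gave 7 to 18 in WT, 3 to 12 in mutant and 1 to 6 in antibiotic tumours, and 0 throughout between tumour groups. Without WT tumours 17 and 19 the WT count was 19, with Cyp1a2, Cyp2c55 and Cyp2e1 gained and Cyp2j5 and Cyp3a11 lost. The difference of Cyp2j6 in WT tumours turned to -0.0315 with the mean of its probe sets. Centring and quantile normalization moved the median of all genes by at most 0.06. With 3 arrays in normal liver and antibiotic tumours, and signals near log2 4, small changes of dim genes are not detectable. Leaving out arrays was examined for the P450 genes alone, not for regulators and partners.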
